A study of Homo sapiens with 6 samples.

Results

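The 9 genes described here encode members of the human aldehyde dehydrogenase family: ALDH1A1, ALDH1A3, ALDH1B1, ALDH2, ALDH3A1, ALDH3A2, ALDH3B1, ALDH7A1 and ALDH9A1. They were taken by gene name from the deposited table, which holds 30483 genes, and each had 1 row. RNA was sequenced from A549, an established human lung adenocarcinoma line. Cells had received 5 µM anlotinib for 48 h in 3 libraries, or the solvent DMSO for 48 h in 3 libraries, and all were grown in serum-supplemented RPMI medium. Anlotinib is a multi-kinase inhibitor whose targets include receptors for VEGF. The stated purpose was to find pathways through which the drug acts on pressure in the tumor stroma. All measurements come from 1 cell line at 1 dose and 1 time, and nothing in the labels says that the replicates were separate cultures, so the p-values reflect no more than how far these libraries scatter, and that scatter may be technical.

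Aldehyde dehydrogenases use NAD+ or NADP+ to oxidise reactive aldehydes to carboxylic acids. Some members have defined substrates in metabolism, such as retinal, fatty aldehydes or intermediates of amino acid and choline breakdown, and others clear acetaldehyde or the aldehydes that arise when lipids are oxidised. ALDH1A1 activity is widely used to mark stem-like tumor cells, and A549 is known as a line with high ALDH1A1 and ALDH3A1. Both genes are also known targets of cellular stress sensors: NRF2, the transcription factor of the oxidative stress response, and for ALDH3A1, in rodents, the aryl hydrocarbon receptor AHR.

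Anlotinib was accompanied by opposite changes of the most abundant members. ALDH3A1 rose 2.17-fold and ALDH1A1 was 1.45-fold lower. The other 7 members did not pass the test, with log2 fold changes between -0.30 and 0.30. Of the 9 members, all tested, 1 rose and 1 fell, where 10.5% of the 15734 tested genes rose and 12.7% fell (limma, Benjamini-Hochberg adjusted p under 0.05), or 23.2% in either direction. The share of members called is thus near that of all genes. In RNA from whole cultures, a level per cell and the share of cells with the RNA cannot be told apart. An at least 2-fold rise was called for 2.96% of tested genes and for 1 member. The median log2 fold change was 0.02 over the 9 members and -0.02 over all tested genes.

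Promoter sequences show how unlike the retinal-oxidising paralogs ALDH1A1 and ALDH1A3 are at their starts, and where the motifs searched lie in ALDH3A2, the neighbour of ALDH3A1. Promoters of 7 members were matched by symbol in RefSeq (GRCh38.p14), each from 250 bases before to 50 after an annotated start, and genes can have more than 1. Capitals mark every match, on either strand, to GCGTG, the core bound by AHR, to TGACNNNGC, the core bound by NRF2, and to CCAAT, the box bound by NF-Y. The CCAAT box was added after the sequences were seen. These are chr9:72953004-72953303 on the minus strand for ALDH1A1, chr15:100879581-100879880 on the plus strand for ALDH1A3, and chr17:19648501-19648800 on the plus strand for the downstream start of ALDH3A2.
ALDH1A1: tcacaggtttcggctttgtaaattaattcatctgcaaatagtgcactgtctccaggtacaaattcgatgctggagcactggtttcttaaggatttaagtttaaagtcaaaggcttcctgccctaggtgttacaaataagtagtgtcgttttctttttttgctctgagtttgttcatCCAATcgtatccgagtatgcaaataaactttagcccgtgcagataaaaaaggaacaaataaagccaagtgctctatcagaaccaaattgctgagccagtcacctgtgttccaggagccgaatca
ALDH1A3: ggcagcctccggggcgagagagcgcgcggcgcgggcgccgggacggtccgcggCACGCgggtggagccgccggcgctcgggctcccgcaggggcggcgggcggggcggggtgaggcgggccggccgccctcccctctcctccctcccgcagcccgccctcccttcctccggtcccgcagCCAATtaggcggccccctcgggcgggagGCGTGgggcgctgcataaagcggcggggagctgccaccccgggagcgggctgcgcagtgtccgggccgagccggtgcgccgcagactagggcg
ALDH3A2: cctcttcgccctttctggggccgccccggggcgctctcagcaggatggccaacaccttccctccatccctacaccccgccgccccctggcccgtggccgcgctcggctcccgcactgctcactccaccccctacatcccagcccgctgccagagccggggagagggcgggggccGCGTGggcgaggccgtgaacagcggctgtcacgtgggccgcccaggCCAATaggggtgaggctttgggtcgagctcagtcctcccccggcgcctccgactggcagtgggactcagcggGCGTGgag

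The ALDH1A1 sequence holds 40.3% G and C and 7 CpG sites, and 11.8% of the 35116 promoters in the table have a lower G and C content. That of ALDH1A3 holds 81.7% G and C and 46 CpG sites, and 98.6% of promoters have a lower content. A CCAAT box starts 74 bases before the start of ALDH1A1 and 71 bases before that of ALDH1A3. It is not particular to them among the members. Matches also lie 63 bases before the start of ALDH7A1, 26 before that of ALDH1B1 and 30 before the downstream start of ALDH3A2. Of all promoters, 34.6% hold one. Among the 9 promoters of the 7 members, GCGTG lies in that of ALDH1A3 and in the downstream one of ALDH3A2, against 36.5% of all promoters. The upstream promoter of ALDH3A2 holds no match to any motif searched. TGACNNNGC, in 13.3% of all promoters, has no match in the windows of the 7 members. ALDH3A1 and ALDH2 had no promoter entry, so their promoters were not searched for any motif. No 2 matches printed here overlap. A match is a description of letters and not a measured binding site.

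The called members, ALDH3A1 and ALDH1A1, are separable from other genes along their principal transcripts, in the transcript orientation searched. These transcripts hold 1925 and 2107 bases, where the deposited gene lengths are 3918 and 2849. Sequence outside them was not searched. No stretch of 31 bases in the principal transcript of ALDH3A1 or of ALDH1A1 occurs in a transcript of another gene (GENCODE 29). The coding sequences of ALDH3A1 and ALDH3A2 have the same base at 66.4% of aligned positions, and the closest pair among the members, ALDH1B1 and ALDH2, at 71.7%. The 90-base window around the longest identical run of ALDH3A1 and ALDH3A2, which is 14 bases long, is shown because it is where their reads are most alike in this measure. Capitals mark the 26 positions at which the sequences differ, from coding base 43 of ALDH3A1 and 34 of ALDH3A2.
ALDH3A1: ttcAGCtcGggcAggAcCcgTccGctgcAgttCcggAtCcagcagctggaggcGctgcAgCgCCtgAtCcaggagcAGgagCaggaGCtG
ALDH3A2: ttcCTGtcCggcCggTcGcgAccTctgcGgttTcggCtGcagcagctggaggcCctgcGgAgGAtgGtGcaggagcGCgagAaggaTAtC

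Other members are less separable. In ALDH7A1, 14.0% of the 31-base stretches also occur elsewhere, mostly in the pseudogene ALDH7A1P1, which had 0 to 3 reads in each library. For ALDH2 the share is 18.9%, the largest part in an overlapping coding gene model on the same strand, AC002996.1, which had at most 2.02 normalized counts. ALDH3B1 shares 10.99%, most often with ALDH3B2, whose highest library had 1.77 normalized counts. An antisense gene overlaps ALDH3A1, with 40.9 to 49.4 normalized counts after anlotinib and 15.3 to 32.1 with DMSO, and without a stated strand setting, reads from the shared stretch may belong to either gene.

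Values are the authors' normalized counts, that is reads of a gene divided by 1 size factor per library. The libraries held 13886120 to 15386107 reads assigned to genes, and 1 read was worth 0.887 to 1.07 normalized counts. Each member had at least 258 reads in every library. Anlotinib replicate 1 lay nearest to the DMSO libraries on the component with the most variance, at 19.1, where anlotinib replicates 2 and 3 had 36.2 and 41.0 and the DMSO libraries -34.9 to -30.1. That library also had the highest normalized count of the anlotinib group for 8 of the 9 members. Of all tested genes, 3648 changed, of which 1645 rose and 2003 fell. Scaled by library totals instead, 2078 rose and 1553 fell. Without anlotinib replicate 1 the number was 5473. Without anlotinib replicate 2 it was 1979, and without DMSO replicates 1, 2 and 3 it was 2288, 2259 and 2313.

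The lung markers of the line were mixed. KRT18, an epithelial keratin, averaged 6628 normalized counts with anlotinib and 8026 with DMSO. EPCAM had a mean of 7.72 normalized counts with anlotinib and 6.61 with DMSO, and its groups overlapped. The surfactant genes SFTPB and SFTPC had means under the minimum of 10. Both were higher in every anlotinib library than in any DMSO library. Of 14 lung markers, 10 were tested, KRT19 and CDH1 rose, KRT7 fell and 7 did not pass. CDH1 did not pass without anlotinib replicate 2 or DMSO replicate 2 or 3. Of all tested genes, 10.5% rose and 12.7% fell. The summed level of the lung markers was 41393 to 61602 with anlotinib and 75597 to 78760 with DMSO. Most of that difference was KRT7, with means of 21450 with anlotinib and 43173 with DMSO. Of 9 fibroblast markers 3 were tested and 2 fell, COL1A1 and THY1. THY1 did not pass without anlotinib replicate 2 or any 1 DMSO library. PDGFRA, also tested, did not pass and averaged 29.6 normalized counts with anlotinib and 20.8 with DMSO. The summed level of the fibroblast markers was 484 to 766 with anlotinib and 2195 to 2955 with DMSO. Most of it was COL1A1, with means of 462 and 2482. Of the untested markers, COL3A1, LUM and PDGFRB were higher in every anlotinib library than in any DMSO library. DCN and FAP overlapped, and each of these untested markers averaged under the minimum of 10. The 6 endothelial markers summed to 14.1 to 24.8 with anlotinib and 14.99 to 19.5 with DMSO. The 4 blood markers with a row, of 8 listed, summed to 79.8 to 90.8 with anlotinib and 58.2 to 90.4 with DMSO. The 2 genes tested in the endothelial and blood lists, KDR at 0.36 and CD14 at 0.14 on the log2 scale, did not pass. The part of these markers in the results on aldehyde dehydrogenases was not tested.

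**Figure D1:**
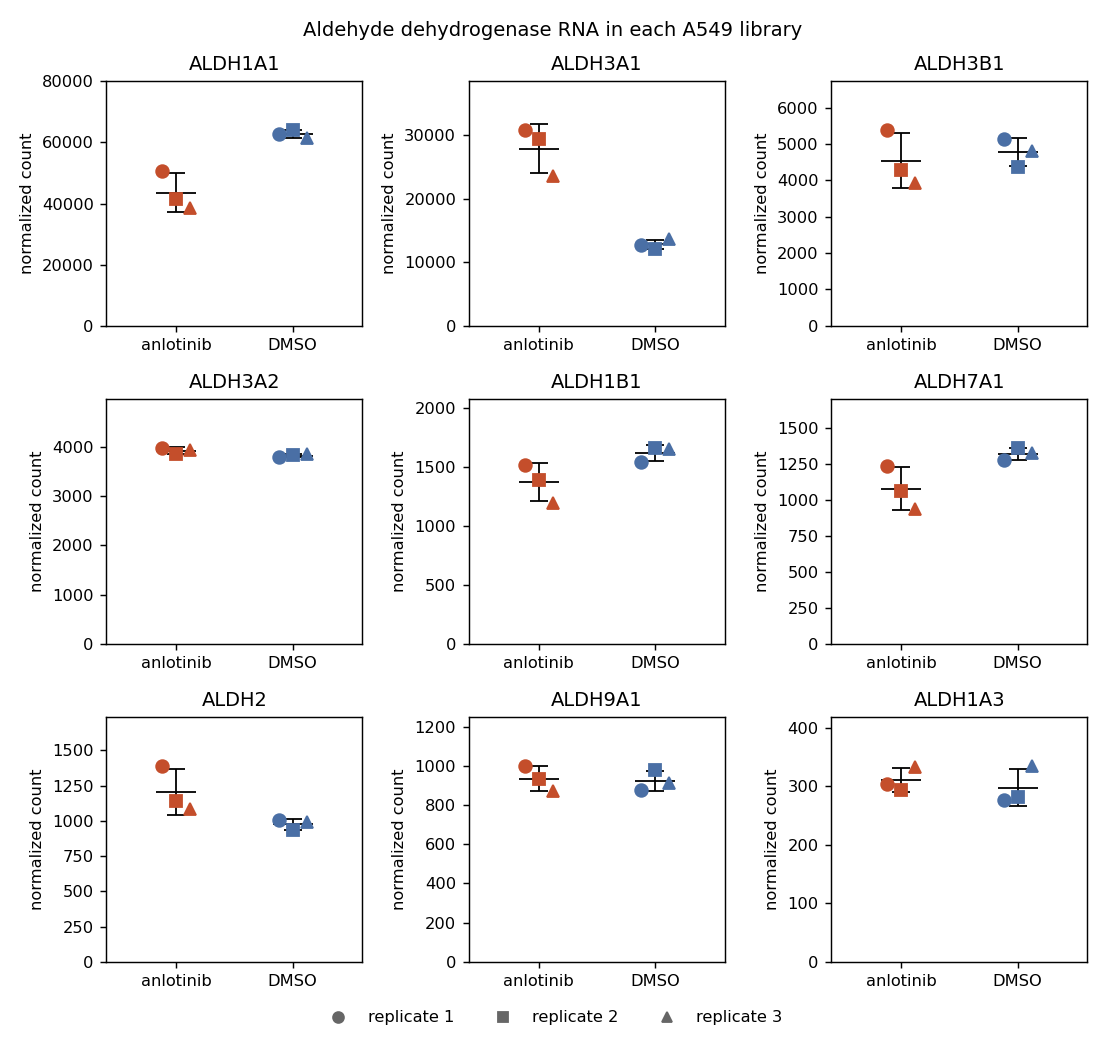
Normalized counts of the 9 members in each library, anlotinib left and DMSO right, with the mean and SD (n = 3 per group) as bars and a marker shape per replicate number. The vertical axes start at 0 and differ between panels. ALDH3A1 lies above and ALDH1A1 below the DMSO libraries in all 3 anlotinib libraries.

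ALDH3A1, a cytosolic enzyme abundant in the cornea that oxidises aromatic aldehydes and medium-chain aldehydes from lipid peroxidation, was the member that rose. It had 30791, 29299 and 23477 normalized counts with anlotinib, against 12744, 12063 and 13556 with DMSO. The groups did not overlap, and anlotinib replicate 3 was the lowest of the treated libraries. The means were 27855 ± 3865 and 12788 ± 747 (SD, n = 3 each). The log2 fold change was 1.12 (SE 0.12, 95% interval 0.85 to 1.38; limma adjusted p = 4.75e-05) on the log2(normalized count + 1) scale. ALDH3A1 lies on chromosome 17 at 19737984 to 19748943 on the minus strand of GRCh38 (ENSG00000108602), a span that covers exons, introns and untranslated regions of all its transcripts. The call held in all 17 alternatives, with log2 fold changes of 1.04 to 1.23.

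ALDH1A1, the cytosolic enzyme that makes retinoic acid from retinal, was the member that fell. Its normalized counts were 50738, 41434 and 38605 with anlotinib, against 62767, 64105 and 61458 with DMSO. Every anlotinib library lay below every DMSO library, and anlotinib replicate 1 was the nearest to them. The means were 43592 ± 6348 and 62777 ± 1324 (SD, n = 3 each), a log2 fold change of -0.54 (SE 0.14, 95% interval -0.84 to -0.23; limma adjusted p = 0.0159). The call was lost when any 1 of the DMSO libraries was left out (limma adjusted p = 0.0631, 0.0734 and 0.0683 without replicates 1, 2 and 3), and without anlotinib replicate 2 (0.0996), with log2 fold changes of -0.55 to -0.50 in these fits. It held without anlotinib replicate 1 (-0.65, limma adjusted p = 0.00054) and without anlotinib replicate 3 (-0.45, limma adjusted p = 0.0102). Over the 17 alternatives, which all kept the sign, the adjusted p spanned 2.01e-05 to 0.0996. The gene lies on chromosome 9 at 72900662 to 73080442, minus strand (ENSG00000165092).

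The balance between the abundant members can be read within each library, where the size factor has no part. The ratio of ALDH1A1 to ALDH3A1, each per kilobase of gene length, was 2.27, 1.94 and 2.26 with anlotinib and 6.77, 7.31 and 6.23 with DMSO. All anlotinib ratios lay below all DMSO ratios. This was fixed by the single genes, whose groups lay apart in opposite directions, so the permutation test adds no support. The means were 2.16 ± 0.18 and 6.77 ± 0.54 (SD, n = 3 each; exact permutation test, two-sided p = 0.1, the smallest that 3 against 3 can give). The ratio per kilobase depends on the length used: with the principal transcript of each gene, an alternative added after the data were seen, it was 1.506, 1.292 and 1.502 with anlotinib and 4.50, 4.86 and 4.14 with DMSO. ALDH1A1 and ALDH3A1 together made up 83.5% to 84.6% of the normalized counts of the 9 members with anlotinib and 84.4% to 85.0% with DMSO.

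The summed level of the 9 members differed by less than the spread of the anlotinib libraries. It was 84805 ± 11018 normalized counts with anlotinib and 89294 ± 356 with DMSO (SD, n = 3 each). The single sums were 96339, 83688 and 74388 with anlotinib, on either side of the DMSO sums of 89402, 89584 and 88897. As a share of all reads, the members took 0.585% ± 0.036 with anlotinib and 0.588% ± 0.012 with DMSO.

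**Figure D2:**
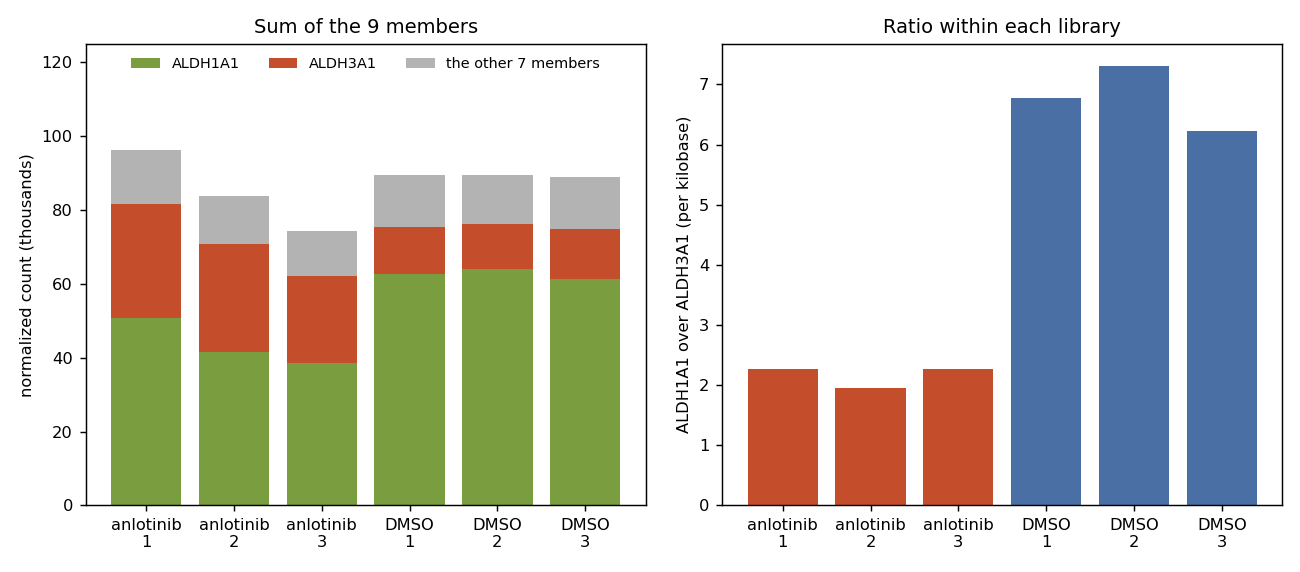
Left, summed normalized counts of the 9 members in each library, split into ALDH1A1, ALDH3A1 and the other 7. Right, the ratio of ALDH1A1 to ALDH3A1 per kilobase, at 1.94 to 2.27 in the anlotinib libraries and 6.23 to 7.31 in the DMSO libraries.

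Levels per kilobase of the deposited gene length spanned a wide range. With anlotinib, ALDH1A1 stood at 15301 ± 2228 normalized counts per kilobase, ALDH3A1 at 7110 ± 986, ALDH3B1 at 684 ± 114, ALDH3A2 at 609 ± 9.81, ALDH1B1 at 434 ± 51.1, ALDH9A1 at 283 ± 19.2, ALDH2 at 124 ± 16.7, ALDH7A1 at 60.0 ± 8.37 and ALDH1A3 at 53.8 ± 3.57 (SD, n = 3). With DMSO the order was the same, from 22035 ± 465 for ALDH1A1 and 3264 ± 191 for ALDH3A1 down to 73.5 ± 2.39 for ALDH7A1 and 51.6 ± 5.56 for ALDH1A3. Neighbours in this order overlapped in the anlotinib libraries for ALDH3B1 and ALDH3A2 and for ALDH7A1 and ALDH1A3, and no neighbours overlapped in the DMSO libraries. The deposited length exceeds that of the principal transcript for all 9 members. With the principal transcript length, ALDH3A1 stood at 14470 per kilobase with anlotinib and 6643 with DMSO, ALDH1A1 at 20689 with anlotinib and 29794 with DMSO, and ALDH3B1 at 1627 with anlotinib and 1713 with DMSO. The levels of 7 of the 9 members with DMSO moved by more than their SD, and ALDH7A1 moved above ALDH2, at 217 against 126 per kilobase with anlotinib and 266 against 102 with DMSO. By mean level per kilobase of the deposited length among the 15734 tested genes, ALDH1A1 ranked 21 with anlotinib and 19 with DMSO, and ALDH3A1 ranked 43 with anlotinib and 116 with DMSO.

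Among the enzymes that make retinoic acid, ALDH1A3 stood far below its paralog ALDH1A1 and did not pass. It had 304, 294 and 333 normalized counts with anlotinib and 276, 283 and 335 with DMSO. The groups overlapped, with a log2 fold change of 0.06 (95% interval -0.19 to 0.32; limma adjusted p = 0.746). An antisense gene overlaps it with 76.2 to 110 normalized counts after anlotinib and 101 to 127 with DMSO.

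The mitochondrial enzymes ALDH2 and ALDH1B1, which both oxidise acetaldehyde, had changes of opposite sign, and neither passed. ALDH2 had 1389, 1139 and 1084 normalized counts with anlotinib and 1007, 932 and 989 with DMSO. Its groups did not overlap, and the log2 fold change was 0.30 (95% interval 0.07 to 0.52; limma adjusted p = 0.0556). This stands at the threshold: ALDH2 passed in 6 of 17 alternatives, among them the tests on recovered reads with edgeR, DESeq2 and limma-voom (adjusted p = 0.0317, 0.0326 and 0.0341), over a range of 0.0107 to 0.183. ALDH1B1, whose gene has few exons, had 1516, 1393 and 1197 normalized counts with anlotinib and 1538, 1661 and 1650 with DMSO. All anlotinib values lay below all DMSO values, with a log2 fold change of -0.25 (95% interval -0.46 to -0.03; limma adjusted p = 0.0908), and it passed in 1 of 17 alternatives, without anlotinib replicate 1 (adjusted p = 0.00807, range 0.00807 to 0.241).

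The remaining members of the third subfamily did not pass. ALDH3A2, the fatty aldehyde dehydrogenase of the endoplasmic reticulum that is defective in Sjögren-Larsson syndrome, had 3982, 3859 and 3948 normalized counts with anlotinib and 3790, 3832 and 3858 with DMSO. Its groups were separated by a small margin, with a log2 fold change of 0.04 (95% interval -0.13 to 0.21; limma adjusted p = 0.766). ALDH3A2 lies 60.4 kb from ALDH3A1 on chromosome 17, with 1 other coding gene between them. The ratio of ALDH3A1 to ALDH3A2 within a library was 7.09 ± 0.99 with anlotinib and 3.34 ± 0.18 with DMSO (SD, n = 3 each, exact permutation test, two-sided p = 0.1, the smallest possible). With ALDH3A1 separated and ALDH3A2 nearly level, these ratios had to separate, so this p adds no support. ALDH3B1, a membrane-associated enzyme for aldehydes from lipid peroxidation, had 5385, 4274 and 3936 normalized counts with anlotinib and 5129, 4370 and 4816 with DMSO. These groups overlapped, with a log2 fold change of -0.08 (95% interval -0.34 to 0.17; limma adjusted p = 0.648).

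ALDH7A1 and ALDH9A1 serve amino acid, choline and carnitine metabolism. ALDH7A1, also called antiquitin, acts in lysine breakdown and oxidises betaine aldehyde. It had 1236, 1062 and 936 normalized counts with anlotinib and 1275, 1361 and 1325 with DMSO. The anlotinib values all lay lower, with a log2 fold change of -0.30 (95% interval -0.53 to -0.08; limma adjusted p = 0.0538), and ALDH7A1 passed in 2 of 17 alternatives, with TMM scaling (adjusted p = 0.0494) and without anlotinib replicate 1 (adjusted p = 0.00135; range 0.00135 to 0.168). ALDH9A1, which makes a precursor of carnitine, had 999, 935 and 872 normalized counts with anlotinib and 875, 977 and 912 with DMSO. The groups overlapped, with a log2 fold change of 0.02 (95% interval -0.18 to 0.22; limma adjusted p = 0.897).

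Over the 9 members, 6 had groups that did not overlap, 3 higher and 3 lower with anlotinib, where 18.8% of all tested genes were higher and 21.4% lower without overlap, or 40.2% together. On GRCh38, ALDH2 lies on chromosome 12 at 111766887 to 111817529 and ALDH1B1 on chromosome 9 at 38392664 to 38398661, both on the plus strand. ALDH1A3 lies on chromosome 15 at 100877714 to 100916626, ALDH3A2 on chromosome 17 at 19648136 to 19677598 and ALDH3B1 on chromosome 11 at 68008578 to 68029282, also on the plus strand. ALDH7A1, on chromosome 5 at 126531200 to 126595418, and ALDH9A1, on chromosome 1 at 165662216 to 165698863, are on the minus strand. The members whose groups were separate but which did not pass were ALDH2, ALDH3A2, ALDH1B1 and ALDH7A1. In the authors' deposited table the adjusted p was under 0.05 for 2 members, with log2 fold changes of 1.12 for ALDH3A1 (adjusted p = 2.38e-22) and -0.53 for ALDH1A1 (adjusted p = 1.56e-05).

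**Figure D3:**
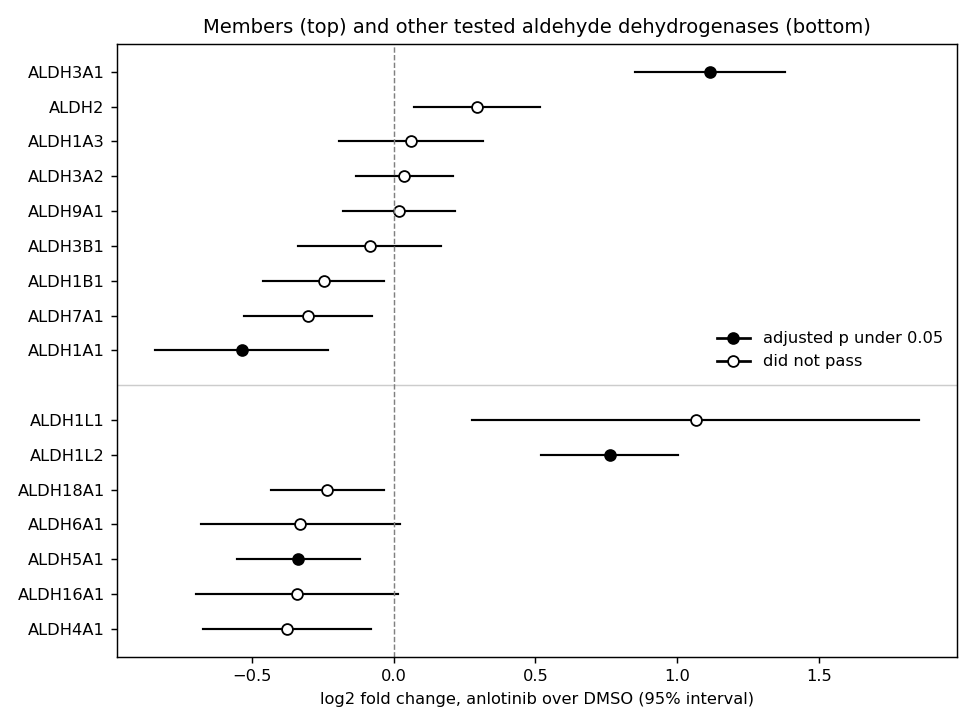
Log2 fold change of anlotinib over DMSO with its 95% interval (limma) for the 9 members and the 7 other tested aldehyde dehydrogenases. Filled points passed at an adjusted p under 0.05: ALDH3A1 and ALDH1A1 among the members, ALDH1L2 and ALDH5A1 among the others.

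**Figure D4:**
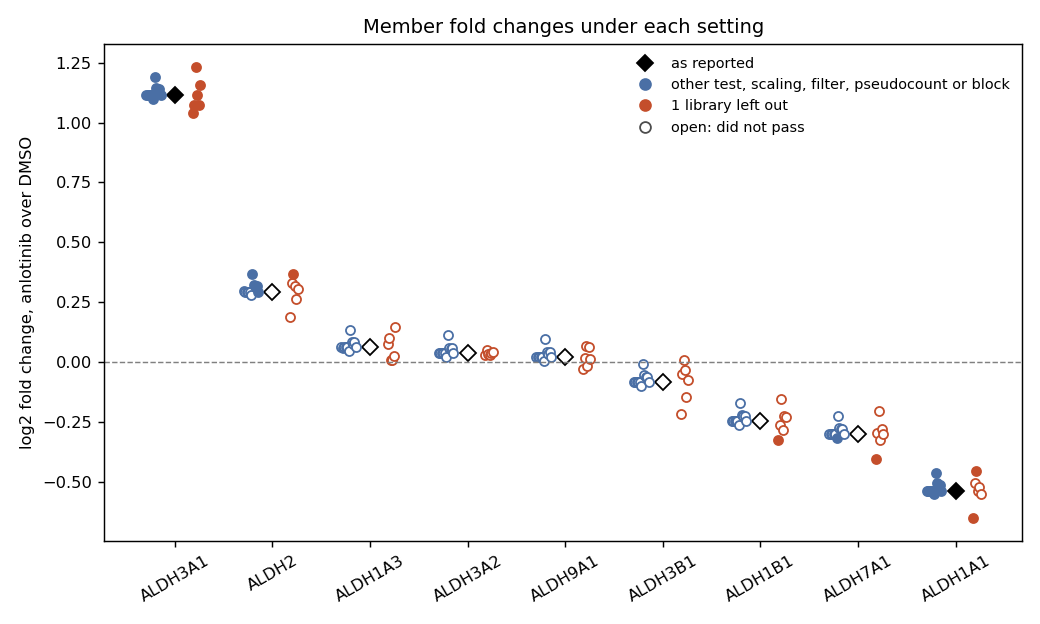
Log2 fold change of each member as reported, under other tests, scalings, filters, pseudocounts and a replicate block, and with 1 library left out. Open points did not pass. ALDH3A1 is filled throughout, between 1.04 and 1.23, and ALDH1A1 lies between -0.65 and -0.45 with 4 open points.

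Of the 10 other family genes, 7 were tested, 1 rose and 1 fell, where 10.5% of all tested genes rose and 12.7% fell. Their median log2 fold change was -0.33. ALDH1L2, the mitochondrial 10-formyltetrahydrofolate dehydrogenase of one-carbon metabolism, had 753, 625 and 726 normalized counts with anlotinib and 377, 401 and 461 with DMSO. The groups did not overlap, and the log2 fold change was 0.76 (limma adjusted p = 0.000411). Its cytosolic counterpart ALDH1L1 had 48.4, 26.6 and 26.6 normalized counts with anlotinib and 13.9, 23.5 and 10.3 with DMSO, with a log2 fold change of 1.07 (limma adjusted p = 0.0516). ALDH5A1, the succinic semialdehyde dehydrogenase of GABA breakdown, had 355, 335 and 319 normalized counts with anlotinib and 439, 414 and 420 with DMSO. It fell by 0.34 on the log2 scale (limma adjusted p = 0.0295), a call that was lost in 7 of 17 alternatives, among them every DMSO library left out.

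Without anlotinib replicate 1, 4 of these other genes fell, ALDH4A1, ALDH5A1, ALDH16A1 and ALDH18A1. In that fit 3205 of the 15734 tested genes fell, where 2003 fell with all 6 libraries. With all 6 libraries the remaining mitochondrial and biosynthetic enzymes did not pass. ALDH4A1, of proline breakdown, stood at -0.38 (limma adjusted p = 0.0643), ALDH18A1, which makes the proline precursor pyrroline carboxylate, at -0.23 (adjusted p = 0.0859), ALDH6A1, of valine breakdown, at -0.33 (adjusted p = 0.166) and ALDH16A1 at -0.34 (adjusted p = 0.156). ALDH1A2, ALDH3B2 and ALDH8A1 had means under 10 normalized counts and were not tested. ALDH1A2, the remaining retinal dehydrogenase, had 2.02, 3.80 and 5.32 with anlotinib and 1.07, 0 and 1.03 with DMSO.

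Retinoid genes supply, bind or remove the substrates and products of the retinal dehydrogenases. Of 30 listed, 22 were tested, 3 rose, 3 fell and 16 did not pass, which is near the 10.5% and 12.7% of all tested genes that rose and fell. The median log2 fold change was 0.06, and changes in this and the further lists are given on the log2 scale. RDH10, which oxidises retinol to retinal, had 706, 715 and 750 normalized counts with anlotinib and 390, 402 and 386 with DMSO, and rose by 0.88 (limma adjusted p = 2.82e-05). RDH11, a retinal reductase, rose by 0.77 (adjusted p = 9.86e-05). STRA6, the receptor for retinol-binding protein, fell by 0.57 (adjusted p = 0.0025), and CYP26B1, which degrades retinoic acid, fell by 0.51 (adjusted p = 0.00291). DHRS9 was low, with means of 28.5 normalized counts with anlotinib and 7.64 with DMSO. It rose by 1.77, and DHRS3 fell by 0.49 (limma adjusted p = 0.00501 and 0.00672). Both belong to the dehydrogenase/reductase family, and both were picked with their values known, to complete the counts. Scaled by library totals, or without anlotinib replicate 3, 5 retinoid genes rose. In these fits 2078 of 15782 and 1549 of 15734 tested genes rose. The receptor genes RARA, RARB, RARG, RXRA and RXRB did not pass.

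In the list of oxidative stress response genes, 13 of 27 rose, 0 fell and 14 did not pass (limma). Of all tested genes, 10.5% rose and 12.7% fell. The median log2 fold change of the list was 0.31. Without anlotinib replicate 1, 1 of its genes fell, as did 3205 of the 15734 tested genes. HMOX1, heme oxygenase 1, had 8295, 10339 and 8312 normalized counts with anlotinib and 3937, 4007 and 3595 with DMSO, a rise of 1.22 (limma adjusted p = 8.32e-06). OSGIN1, an oxidative stress-induced gene, rose by 1.05, TXNRD1, thioredoxin reductase, by 0.77, and ABCC2, an efflux transporter, by 0.71 (adjusted p = 3.01e-05, 0.000328 and 0.00014). ALDH3A1, at 1.12, lay within the range of these genes. ALDH1A1, at -0.54, lay below the lowest value of the list, which was -0.24 for PRDX1, named after its value was seen.

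AHR pathway genes included the enzymes and feedback genes that the receptor is known to induce. Of 10 listed, 8 were tested, 4 rose and 0 fell (limma), where 10.5% of all tested genes rose and 12.7% fell. The median of the list was 0.43. Without anlotinib replicate 1, 1 of its genes fell, as did 3205 of the 15734 tested genes. CYP1A1, its best-known target, had 68.6, 35.2 and 64.7 normalized counts with anlotinib and 10.7, 16.3 and 16.4 with DMSO, a rise of 1.85 (limma adjusted p = 0.00126). CYP1B1 rose by 0.89, the receptor's repressor AHRR by 1.00 and TIPARP, a feedback ADP-ribosyltransferase, by 0.66 (adjusted p = 6.31e-05, 0.000255 and 0.0031). AHR itself and its partner ARNT did not pass.

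The enzymes that reduce aldehydes mostly did not pass. Of 24 alcohol dehydrogenases and carbonyl reductases, 17 were tested, 1 rose and 1 fell, where 10.5% of all tested genes rose and 12.7% fell. The median of the list was 0.12. With scaling by library totals 4 of its genes rose, and 5 fell without anlotinib replicate 1. Among all tested genes, 2078 of 15782 rose in the former fit and 3205 of 15734 fell in the latter. AKR1C1, an aldo-keto reductase whose count is uncertain because its paralogs are nearly identical, had 8580, 8579 and 7989 normalized counts with anlotinib and 4699, 4123 and 4551 with DMSO, and rose by 0.91 (limma adjusted p = 1.97e-05). AKR7A2, an aflatoxin aldehyde reductase, fell by 0.50 (adjusted p = 0.0362), a call lost in 5 of 17 alternatives that each left out 1 library. SORD and AKR1B10 stood at -0.25 and 0.22 (adjusted p = 0.0919 and 0.139).

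Among 29 genes of enzymes that release or handle aldehydes, 24 were tested, 5 rose and 1 fell, with a median of 0.11. Of all tested genes, 10.5% rose and 12.7% fell. In this list 3 rose without anlotinib replicate 2 or DMSO replicate 1 or 3, and 2 fell without anlotinib replicate 1. Of the 15734 tested genes, 871, 1032 and 1081 rose and 3205 fell in these fits, in the same order. The amine oxidase genes AOC3 and AOC2, close paralogs that lie side by side, rose by 1.15 and 0.75 (limma adjusted p = 0.0025 and 0.00376). GOT1, the cytosolic aspartate aminotransferase, rose by 0.44, and CHDH, which turns choline into betaine aldehyde, fell by 0.69 (adjusted p = 0.00433 and 0.00663). None of the 13 mitochondrially encoded genes passed, with a median of 0.14, where 23.2% of all tested genes passed. MT-ND1, MT-ND6, MT-ND2 and MT-ND4 stood at 0.30, 0.22, 0.17 and 0.19. With scaling by library totals or without anlotinib replicate 3, 2 of the 13 rose, where 2078 of 15782 and 1549 of 15734 tested genes rose. The lists hold genes chosen with earlier results of the same libraries known, so their counts are descriptions.

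**Figure D5:**
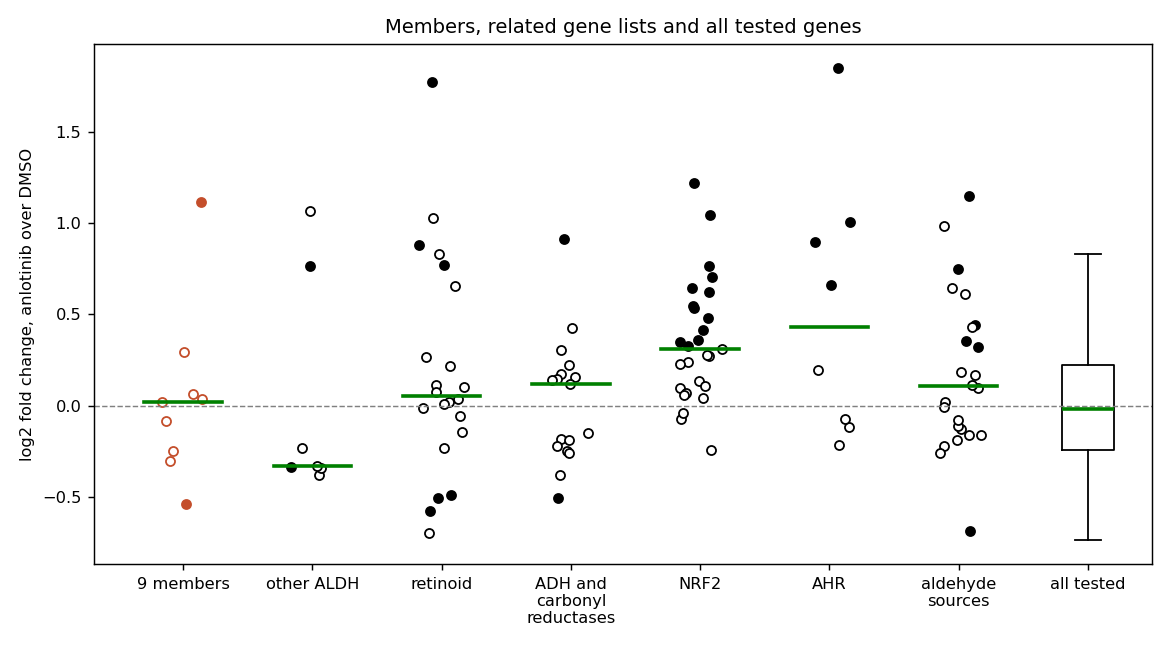
Log2 fold change of anlotinib over DMSO for each tested gene of the members and of 6 related lists, with list medians as green lines. Filled points passed (limma adjusted p under 0.05); the box at the right spans the quartiles of all 15734 tested genes and its whiskers the 5th to 95th percentiles. The medians are 0.02 for the members, 0.31 for the oxidative stress list and 0.43 for the AHR list.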

How the data were processed

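RNA of 3 anlotinib and 3 DMSO libraries of A549 cells was sequenced. Groups follow the treatment label of each sample; the treatment protocol text names the drug for all 6. The deposited values are normalized counts per gene (a signal, not raw counts); all were whole multiples of 1 step per library (tolerance 1e-06), so the authors divided reads by 1 factor per library. Log2 fold changes and p-values of the authors were deposited beside them; their test is not given in the sources used here. Aligner, counter and strand setting are likewise not given. Gene IDs and coordinates equal GENCODE 29 (GRCh38) for all 30483 genes, while the submitters' processing notes name mm9, a mouse build.

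The 15734 genes whose 6-library mean reached 10 were tested with limma 3.58.1 in R 4.3.3 on log2(normalized count + 1), with a mean-variance trend, no covariates and Benjamini-Hochberg adjustment over all of them. On simulated data with 15734 genes, the comparison called 81 of 100 genes changed by 1 on the log2 scale, 38 of 100 changed by 0.5 and 6 of 15534 unchanged genes. The simulation held a far smaller share of changed genes than the 23.2% called in the data, so these rates need not hold there. Alternatives used edgeR 4.0.16, DESeq2 1.42.0 and limma-voom on the recovered reads, other scalings, filters and pseudocounts, a replicate block and each library left out. The members and lists were chosen with earlier results of these data known. By rule, the text names the 9 members, the other aldehyde dehydrogenases, the 4 tested genes with the smallest p in each list, and the 3 genes nearest to ALDH1A1. Outside this rule it also names DHRS9, DHRS3, PRDX1, AHR, ARNT, the retinoid receptor genes and the lung markers EPCAM, SFTPB and SFTPC. It also names the untested fibroblast markers COL3A1, LUM, PDGFRB, DCN and FAP. All of these were chosen after their values were seen. Figures were drawn with matplotlib 3.10.9 in Python 3.11.15.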

Additional observations from a re-analysis of the deposited data

How the results depend on the processing

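ALDH3A1 kept its direction and its call in all 17 alternatives. Leaving out 1 library gave 1979 to 5473 changed genes, 871 to 2268 higher and 1108 to 3205 lower, and 1 to 4 changed members, 1 to 2 higher and 0 to 3 lower. The 2 higher members under library totals, edgeR, DESeq2, limma-voom and the replicate block were ALDH3A1 and ALDH2, whose log2 fold change was then 0.37, 0.32, 0.32, 0.32 and 0.30. Under TMM scaling 2 members were lower, ALDH1A1 and ALDH7A1, with ALDH7A1 at -0.32. With 1 library left out, log2 fold changes spanned -0.65 to -0.45 for ALDH1A1, 0.0092 to 0.15 for ALDH1A3 (0.06 with all libraries), -0.32 to -0.15 for ALDH1B1, 0.19 to 0.37 for ALDH2, -0.22 to 0.011 for ALDH3B1, -0.40 to -0.20 for ALDH7A1 and -0.028 to 0.070 for ALDH9A1. The sign turned for ALDH3B1 without anlotinib replicate 3 and for ALDH9A1 without anlotinib replicate 1 (-0.028) or DMSO replicate 1 (-0.016). CD14, a blood marker at 0.14, spanned -0.049 to 0.26. The cause of these shifts was not tested. The replicate numbers did not pair the libraries (correlations of same-numbered deviations -0.0407, 0.0259 and -0.00286), and with the replicate block 3552 genes changed, 3 of them members. ALDH1A2 had 0 to 6 reads in a library and was not tested.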

Other observations

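The 3 genes whose centred log2 values lay nearest to those of ALDH1A1 over the 6 libraries, among 10849 genes with a mean of at least 100, were RIMS3 at a Euclidean distance of 0.0671, CBX2 at 0.0747 and TCF3 at 0.0778. Their log2 fold changes of anlotinib over DMSO were -0.53, -0.56 and -0.57, beside -0.54 for ALDH1A1. This closeness follows from how the genes were picked.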
